A study of Mus musculus with 96 samples.

Results

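Metallothionein 1 (Mt1, ENSMUSG00000031765), metallothionein 2 (Mt2, ENSMUSG00000031762), the zinc exporter Slc30a1 (ENSMUSG00000037434) and the zinc-sensing transcription factor Mtf1 (ENSMUSG00000028890) were followed through a set of C2C12 mouse muscle cell cultures with defined mitochondrial defects. These 4 genes were chosen by their symbols, as MTF1 and its best known targets, out of 54150 rows of the gene table, with earlier results of these data known, so that their tests describe these samples and are no independent evidence. C2C12 is a mouse myoblast line that proliferates in rich serum and fuses into myotubes in low serum, and 96 RNA-seq libraries covered 35 conditions in 2 or 3 replicate wells each. Nothing in the labels says whether replicate wells came from separate experiments, so the p-values measure the spread between these wells only.

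Proliferating myoblasts carried a doxycycline-inducible lentiviral transgene in every group, induced with 300 ng/ml doxycycline from 24 hr before treatment. The transgene was luciferase (control myoblasts), LbNOX, mitoLbNOX or NDI1. LbNOX is a bacterial enzyme that oxidizes NADH to NAD+ with oxygen and forms water, mitoLbNOX is its mitochondrially targeted form, and NDI1 is a yeast NADH dehydrogenase that passes electrons to ubiquinone without complex I. For 10 hr, control and LbNOX myoblasts received DMSO, the complex I inhibitor piericidin, the complex III inhibitor antimycin or the ATP synthase inhibitor oligomycin (n = 3 each), mitoLbNOX myoblasts DMSO, piericidin or antimycin (n = 3 each) and NDI1 myoblasts DMSO or piericidin (n = 2 each). For 48 hr, control and LbNOX myoblasts received DMSO or chloramphenicol, which blocks mitochondrial translation (n = 2 each). Myotubes, after 4 days in 2% horse serum, carried no transgene or were transduced with adenovirus for eGFP (n = 2 per treatment) or for eGFP with LbNOX (n = 3 per treatment), with no doxycycline. Untransduced myotubes (n = 3 each) received DMSO, piericidin, antimycin, oligomycin, the uncoupler BAM15, oligomycin with piericidin, oligomycin with BAM15, or DMSO or oligomycin in hypoxia, while transduced myotubes received DMSO, piericidin or oligomycin. Cells after 24 hr in low serum, without a transgene (day 1 low serum cells, n = 3 each), received DMSO, piericidin or oligomycin. Treatments of myotubes and of day 1 low serum cells also lasted 10 hr, and hypoxia began in the night before and was kept up through them. Media lacked pyruvate and uridine, except that chloramphenicol was given in the presence of uridine, and the uninfected parental line was not among the myoblast groups.

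Metallothioneins are small cysteine-rich proteins that bind zinc and copper and buffer the free metal in the cytosol. When free zinc rises, MTF1 binds metal response elements in the promoters of the metallothionein genes and of Slc30a1, whose product pumps zinc out of the cell across the plasma membrane. The metallothionein genes are also known to respond to glucocorticoids, oxidants and low oxygen, and in skeletal muscle to rise in several forms of wasting.

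Mt2 and Mt1 lie head to tail on the plus strand (chromosome 8, 94172664 to 94173568 and chromosome 8, 94179082 to 94180327 in GRCm38, GENCODE vM21), with 5513 bases between them. Slc30a1 lies at chromosome 1, 191906767 to 191913247 and Mtf1 at chromosome 4, 124802104 to 124849800, both also on the plus strand. The sequences before the starts of the 3 target genes are shown because they hold the element through which MTF1 is known to act on them. They are RefSeq promoter windows (GRCm38.p6, 250 bases before to 50 after the annotated start), in lower case with each metal response element core, TGCACNC or TGCGCNC on either strand, in capitals. All 4 members were found in the table.
Mt2, 250 bases before the start, chr8:94172368-94172617, + strand: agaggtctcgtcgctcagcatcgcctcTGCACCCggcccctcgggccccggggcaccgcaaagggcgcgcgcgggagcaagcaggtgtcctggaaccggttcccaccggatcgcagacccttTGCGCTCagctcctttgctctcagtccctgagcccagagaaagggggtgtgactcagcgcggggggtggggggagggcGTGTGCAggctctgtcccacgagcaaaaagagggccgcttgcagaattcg
Mt1, 250 bases before the start, chr8:94178839-94179088, + strand: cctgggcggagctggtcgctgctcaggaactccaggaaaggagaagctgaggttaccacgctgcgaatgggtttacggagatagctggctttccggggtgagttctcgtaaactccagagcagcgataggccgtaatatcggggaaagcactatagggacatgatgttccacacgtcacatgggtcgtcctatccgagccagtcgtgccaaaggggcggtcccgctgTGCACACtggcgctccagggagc
Mt1, bases just after the start, chr8:94179090-94179116, + strand: cTGCACTCcgcccgaaaagTGCGCTCg
Slc30a1, 250 bases before the start, chr1:191906531-191906780, + strand: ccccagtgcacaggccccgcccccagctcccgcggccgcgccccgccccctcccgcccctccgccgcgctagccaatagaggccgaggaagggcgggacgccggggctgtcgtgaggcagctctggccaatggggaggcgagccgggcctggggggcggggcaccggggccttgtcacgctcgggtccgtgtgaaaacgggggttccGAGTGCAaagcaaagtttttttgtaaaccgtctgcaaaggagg
The whole 300-base windows held 4 such cores in Mt2, 3 in Mt1, 2 in Slc30a1 and 0 in Mtf1. The RefSeq starts of these windows differ from the GENCODE gene starts given above. For Mtf1 the 250 bases before the RefSeq start, chromosome 4, 124802299 to 124802548, lie inside the gene as placed above. The region before that gene start was not scanned, so the 0 of Mtf1 does not cover it. Of 32851 promoter windows of the same length, 25.7% held at least 1 core, 7.11% at least 2 and 1.97% at least 3. The windows also differed in the other motifs searched. The antioxidant response element core TGACNNNGC occurred 1 time in Mt2 and 1 time in Slc30a1, and not in Mt1 or Mtf1, against 12.4% of all windows with a match. The hypoxia response element core, ACGTG or GCGTG, occurred 2 times in Mt2, 2 times in Mt1 and 1 time in Slc30a1, against 43.8% of all windows with a match, and 1 of those in Mt2 overlaps a metal response element core. These matches describe letters only and no binding was measured. Mt1 has 3 annotated transcripts, only 1 start was scanned for each gene, and the start used in these cells was not measured. A core placed after the scanned start may lie before another start, and cores outside the windows were not counted.

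Library totals ranged from 6458295 to 15366745 estimated counts, with a median of 10336588.5. Levels are given as CPM, each gene's count scaled to an equal library total, with TMM scaling over all 96 libraries, not divided by gene length, so that a level can be set beside another sample's level of the same gene but not beside another gene's. Mt1 had 862 to 5806 counts in a library and Mt2 331 to 5636, whereas Slc30a1 had only 12 to 71 and Mtf1 45 to 212, and the last 2 genes are accordingly less precise. Mt3 and Mt4, the other listed metallothioneins, summed to 4 and 7 counts over all libraries. All 4 members passed the count filter in each of the 6 fits. Every library of a transduced group held the transgene row its label names with at least 372 counts, and apart from the eGFP row in LbNOX myotubes, whose adenovirus carries eGFP too, no library had a count in the row of any other transgene. The LbNOX row does not part LbNOX from mitoLbNOX. The summed level of 6 myotube markers was 10.8 to 95.5 CPM in myoblasts, 10620 to 12750 in day 1 low serum cells and 10300 to 15150 in myotubes. That of 4 proliferation markers was 362.1 to 841.5, 135.7 to 168.7 and 21.0 to 118.3 CPM in the same order, and that of 3 commitment markers 94.1 to 410.7, 2879 to 3899 and 2128 to 3886. Among the proliferation markers Myf5 did not follow the sum, with DMSO means of 10.9 CPM in control myoblasts, 17.5 in day 1 low serum cells and 9.04 in untransduced myotubes. All 96 samples have a position on the same 96-position plate, whereas the paper treated the cells in culture plates with fewer wells. Plate position therefore does not say where in a culture plate cells were treated. All 3 control DMSO samples and 0 of the 3 control antimycin samples were on the edge of that plate. With plate position as a covariate the antimycin values of Mt2 and Mt1 below were 2.99 at adjusted p = 2.93e-19 and 1.53 at adjusted p = 1.53e-13 on the log2 scale. In such bulk samples, more cells making an RNA and more of it per cell cannot be told apart.

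In control myoblasts all 3 inhibitors raised Mt2, and antimycin raised it most. Mt2 stood at 78.7, 68.0 and 59.7 CPM in the DMSO wells, 226, 211 and 218 with piericidin, 436, 588 and 585 with antimycin and 192, 179 and 183 with oligomycin. Every inhibitor well lay above every DMSO well, and the antimycin wells lay above all piericidin and oligomycin wells. The increases were 3.27-fold under piericidin (log2 fold change 1.71 ± 0.11 SE, adjusted p = 2.53e-14), 8.01-fold for antimycin (3.0 ± 0.11, adjusted p = 4.87e-20) and 2.72-fold for oligomycin (1.44 ± 0.11, adjusted p = 2.01e-12), by edgeR's quasi-likelihood test with Benjamini-Hochberg adjustment over all genes, the test used throughout. Mt1 rose with piericidin and antimycin and was not called with oligomycin. It stood at 217, 198 and 189 CPM with DMSO, 342, 319 and 319 with piericidin, 497, 620.4 and 615 with antimycin and 209, 209.6 and 220.3 with oligomycin, where the wells overlapped those of DMSO. The piericidin and antimycin increases of Mt1 were 1.67-fold (log2 0.74 ± 0.096, adjusted p = 8.48e-08) and 2.94-fold (log2 1.56 ± 0.097, adjusted p = 9.96e-15), and its oligomycin value of 0.099 ± 0.096 did not pass (adjusted p = 0.413, 95% interval -0.089 to 0.29). The summed level of 4 proliferation markers was 797 to 830 CPM with DMSO, 702.1 to 783.5 with piericidin, 592 to 624 with antimycin and 663 to 687 with oligomycin. Within this sum the mean of Top2a went from 392 CPM with DMSO to 181 with antimycin, and that of Myf5 from 10.9 to 131. The part of such changes in the metallothionein values was not tested.

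Against DMSO, piericidin called 61.7% of all tested genes, antimycin 63.2% of them and oligomycin 50.8%, so a call by itself sets no member apart. Piericidin and antimycin called 4 of the 4 members, all higher, and oligomycin called 2, Mt2 and Slc30a1. Between inhibitors, antimycin exceeded piericidin for both metallothioneins (Mt2 1.29 ± 0.11, adjusted p = 3.46e-11; Mt1 0.82 ± 0.095, adjusted p = 3.92e-08) with 37.2% of genes called, and was not called for the other 2 members. Antimycin also exceeded oligomycin for Mt2 (1.56 ± 0.11, adjusted p = 2.55e-13) and Mt1 (1.46 ± 0.097, adjusted p = 1.25e-13), with 50% of genes called. Piericidin exceeded oligomycin for Mt1 (0.64 ± 0.096, adjusted p = 2.67e-06), with 39.2% of genes called. For Mt2 the same difference, 0.27 ± 0.11, stood at the threshold (adjusted p = 0.0433) and became 0.24 at adjusted p = 0.181 without replicate 2 of every group and 0.26 at adjusted p = 0.187 without replicate 3. For Mtf1, 0.44 ± 0.16 (adjusted p = 0.0306) became 0.38 at adjusted p = 0.215 and 0.29 at adjusted p = 0.31. By the DESeq2 Wald test both these calls were lost (0.26 at adjusted p = 0.0557 and 0.42 at adjusted p = 0.0567). The call of Mt2 was lost with DESeq2 size factors in edgeR (0.26 at adjusted p = 0.0574), and that of Mtf1 also without the filter on low counts (0.46 at adjusted p = 0.159) and with only the compared groups in the fit (0.42 at adjusted p = 0.104). Antimycin against oligomycin gave 0.29 ± 0.16 for Mtf1 (adjusted p = 0.147), and 0.54 at adjusted p = 0.028 without replicate 1, 0.059 at adjusted p = 0.86 without replicate 2 and 0.20 at adjusted p = 0.465 without replicate 3.

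**Figure D1:**
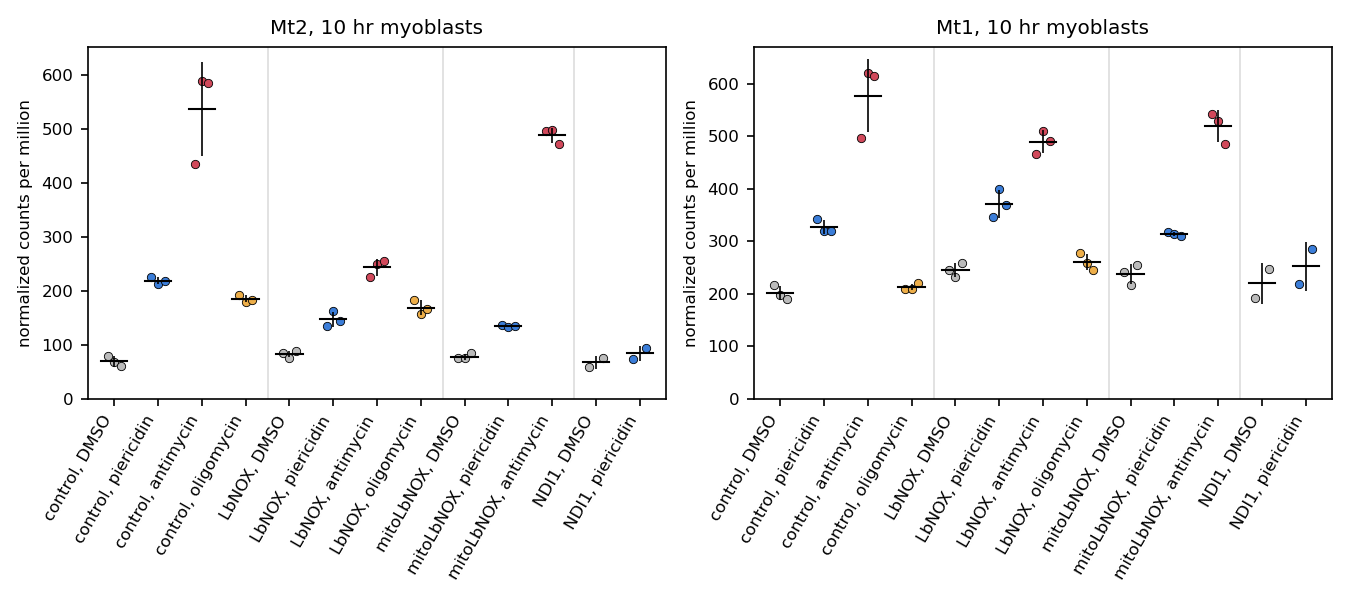
TMM-scaled CPM (vertical axes, linear, from 0) of Mt2 and Mt1 in myoblasts treated for 10 hr. Points are wells, horizontal lines means and vertical lines 1 SD, over 3 wells (NDI1, 2 wells). With antimycin Mt2 runs from 436 to 588 CPM in control and from 225 to 254 CPM in LbNOX myoblasts, while Mt1 runs from 497 to 620.4 CPM and from 467 to 511 CPM.

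Slc30a1, the exporter, rose in control myoblasts with every inhibitor. It was at 2.94, 2.89 and 3.56 CPM with DMSO, 6.97, 5.21 and 6.57 with piericidin, 4.52, 4.56 and 5.95 with antimycin and 6.32, 5.81 and 6.05 with oligomycin. Its log2 fold changes were 1.04 ± 0.24 (adjusted p = 0.000382), 0.71 ± 0.24 (adjusted p = 0.0109) and 0.97 ± 0.24 (adjusted p = 0.000972). No pair of inhibitors differed past the threshold for Slc30a1, with a 95% interval of -0.78 to 0.13 for antimycin against piericidin. The wells of every inhibitor lay above those of DMSO, and the wells of piericidin and antimycin overlapped. The antimycin call of Slc30a1 was lost without replicate 1 (0.73 at adjusted p = 0.095) or replicate 2 (0.65 at adjusted p = 0.0994), and the oligomycin call without replicate 1 (0.90 at adjusted p = 0.0523). The antimycin call was also lost without the count filter (0.72 at adjusted p = 0.111).

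Mtf1 itself rose with piericidin and antimycin. It was at 9.10, 8.04 and 8.68 CPM with DMSO, 12.9, 11.7 and 13.2 with piericidin, 10.7, 12.8 and 10.6 with antimycin and 12.1, 8.38 and 7.88 with oligomycin. Piericidin gave 0.60 ± 0.16 (adjusted p = 0.00207), antimycin 0.44 ± 0.16 (adjusted p = 0.0187) and oligomycin 0.16 ± 0.16 (adjusted p = 0.444). The antimycin call was lost without replicate 2 (0.23 at adjusted p = 0.379), replicate 3 (0.46 at adjusted p = 0.0652) or the count filter (0.45 at adjusted p = 0.117). The library preparation kept no strand, and Mtf1 overlaps 1110065P20Rik, a protein-coding gene on the opposite strand with 29 to 178 counts a library. Reads of the shared part, 7.77% of the 31-base stretches of Mtf1 transcripts, cannot be told apart, and values of Mtf1 are uncertain. A sum of both genes also carries changes of 1110065P20Rik outside the shared part. With the counts of both genes added, the 3 values against DMSO were 0.58 at adjusted p = 0.00258, 0.59 at adjusted p = 0.002 and 0.14 at adjusted p = 0.506. For 1110065P20Rik alone they were 0.53 at adjusted p = 0.282, 0.88 at adjusted p = 0.0648 and 0.084 at adjusted p = 0.889. Antimycin against oligomycin then gave 0.45 at adjusted p = 0.0195, with 1110065P20Rik alone at 0.79 at adjusted p = 0.116. The genes overlapping Mt2 and Slc30a1 on the opposite strand, Gm45774 and 1700034H15Rik, had at most 8 counts in any library. Of the 31-base stretches of Mt2 and Slc30a1, 58.1% and 8.38% also occur in another gene, nearly all in these, and the division of such reads rests on the pseudoalignment. Mt1 and Mt2 transcripts shared 0 stretches of 31 bases, the word length of the pseudoalignment index.

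**Figure D2:**
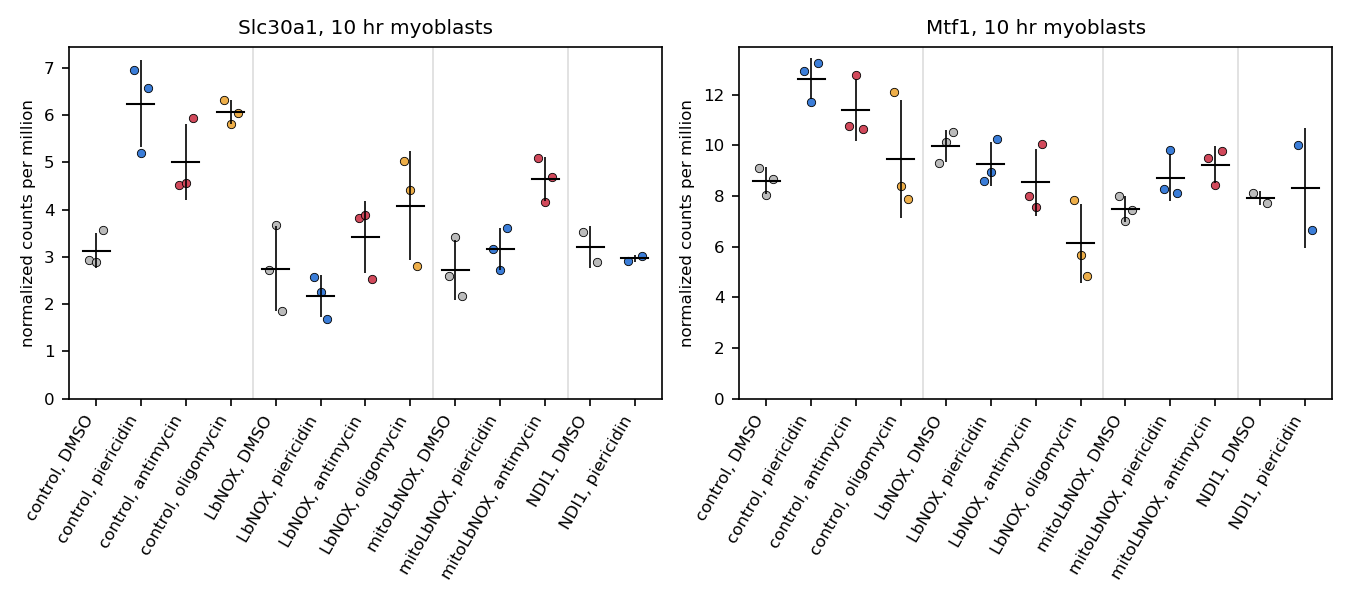
TMM-scaled CPM (vertical axes, linear, from 0) of Slc30a1 and Mtf1 in myoblasts treated for 10 hr, with points for wells, horizontal lines for means and vertical lines for 1 SD. Slc30a1 runs from 2.89 to 3.56 CPM in control DMSO wells, from 5.21 to 6.97 CPM with piericidin in control and from 1.68 to 2.57 CPM with piericidin in LbNOX myoblasts.

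The zinc transporter families held members that rose and members that fell in control myoblasts. Of 10 listed exporters and vesicle loaders of the Slc30 family, 6 were measured, Slc30a1 among them, and the calls were piericidin 3 higher and 0 lower, antimycin 4 and 0, oligomycin 1 and 1. Their median log2 fold changes were 0.55, 0.64 and -0.018, beside medians of all genes tested of -0.0037, -0.0048 and -0.015. Slc30a9, a zinc transporter of mitochondria, rose with piericidin (1.46 ± 0.44, adjusted p = 0.00506) and antimycin (1.38 ± 0.44, adjusted p = 0.00731). Of 14 listed importers of the Slc39 family, 10 were measured, with calls of piericidin 2 higher and 4 lower, antimycin 3 and 4, oligomycin 3 and 2 and medians of -0.28, -0.039 and -0.031. Slc39a10, a plasma membrane importer, fell with all 3 inhibitors (-2.32 ± 0.14, -2.37 ± 0.14 and -1.52 ± 0.13). Slc39a13, an importer of the secretory pathway, fell with piericidin (-1.16 ± 0.076) and antimycin (-1.29 ± 0.077).

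Of 6 other genes listed as MTF1 responsive, all were measured, with calls of piericidin 4 higher and 1 lower, antimycin 5 and 1, oligomycin 3 and 1 and medians of 0.61, 1.28 and 0.23. Ndrg1, which is also known as a hypoxia and stress response gene, had the largest increases of any listed gene, 4.20 ± 0.067, 4.89 ± 0.069 and 3.45 ± 0.065 on the log2 scale. The LIM domain protein gene Csrp1 rose by 1.94 ± 0.083 with piericidin and 1.93 ± 0.083 with antimycin. Pgf, a vascular growth factor gene, rose with antimycin (1.86 ± 0.10) and fell with piericidin (-0.96 ± 0.11) and oligomycin (-0.38 ± 0.10), and the selenoprotein gene Selenow rose with oligomycin (0.68 ± 0.07). Slc40a1, the iron exporter, fell with antimycin (-1.31 ± 0.36). Of 13 copper-handling genes 12 were measured, with calls of piericidin 3 higher and 4 lower, antimycin 3 and 3, oligomycin 4 and 3 and medians of -0.074, 0.053 and -0.043. Among them Sco1, a copper chaperone of cytochrome c oxidase, rose by 0.80 ± 0.13 with oligomycin, while the metalloreductase gene Steap3 fell with piericidin (-1.27 ± 0.10) and oligomycin (-1.44 ± 0.10) and the copper transporter gene Slc31a2 fell with oligomycin (-0.71 ± 0.16). Over the 33 measured genes of these 4 lists other than Slc30a1, 20, 22 and 17 were called, beside 61.7%, 63.2% and 50.8% of all genes, so the share of calls in these lists was near that of all genes.

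**Figure D3:**
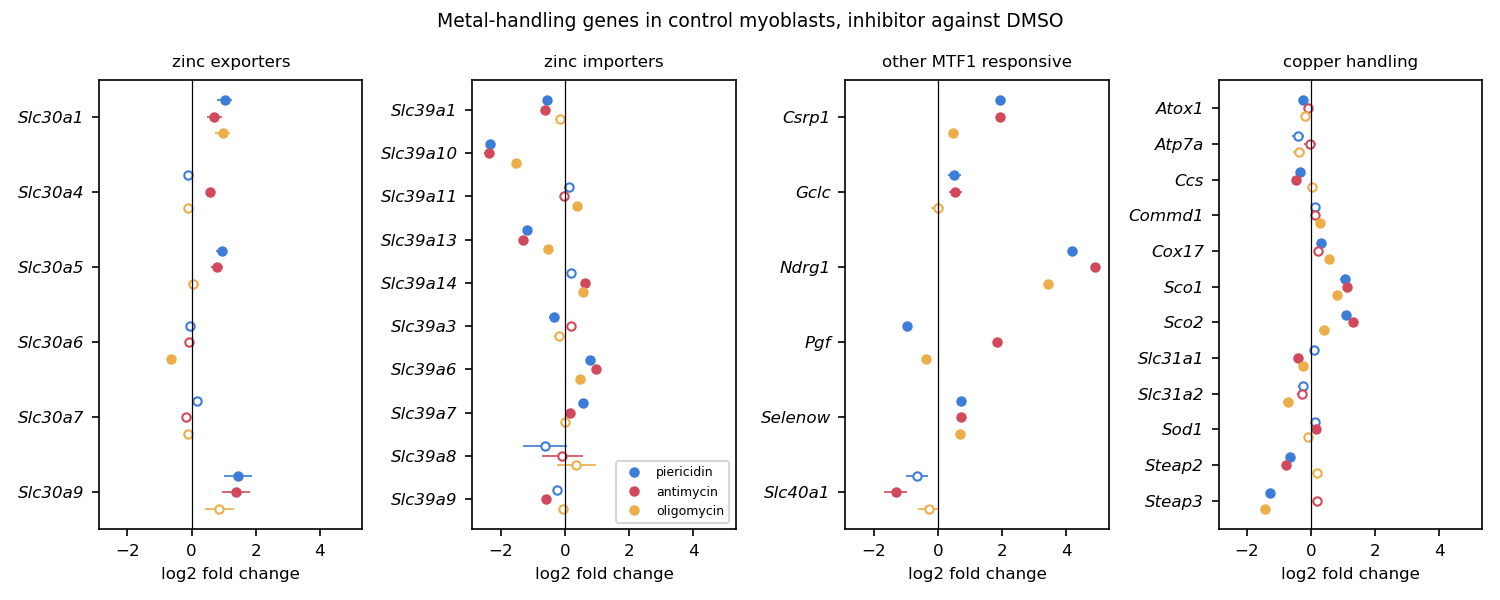
Log2 fold changes (horizontal axes) against DMSO in control myoblasts for the measured genes of 4 metal-handling lists, with piericidin in blue, antimycin in red and oligomycin in yellow. Bars are 1 SE, filled points passed the adjusted threshold of 0.05 and open points did not. Ndrg1 lies between 3.45 and 4.89, and Slc39a10 between -2.37 and -1.52.

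The enzyme-expressing myoblasts asked whether oxidizing NADH in the cytosol or mitochondria, or passing complex I, changes the response. Under DMSO no member was called against control myoblasts with LbNOX, mitoLbNOX or NDI1, where 2.68%, 1.77% and 4.61% of all genes were called. The largest of these values in size was that of Mt1, 0.28 ± 0.095 with LbNOX (adjusted p = 0.133). The Mt1 wells under DMSO did not overlap there, at 231 to 259 CPM with LbNOX and 189 to 217 CPM in control myoblasts. Without the count filter Mt1 was called with LbNOX (0.28 at adjusted p = 0.000107) and mitoLbNOX (0.24 at adjusted p = 0.00196), and Mt2 with LbNOX (0.26 at adjusted p = 0.00813).

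With piericidin the Mt2 response was smaller with each of the 3 enzymes than in control myoblasts. Mt2 was at 84.7, 75.8 and 87.6 CPM with DMSO and 135, 162 and 144 with piericidin in LbNOX myoblasts, and at 74.2, 74.6 and 83.5 and 136, 133 and 134 in mitoLbNOX myoblasts. In NDI1 myoblasts it was at 58.9 and 75.8 with DMSO and 73.5 and 93.7 with piericidin. Piericidin still separated the wells with LbNOX and mitoLbNOX, and the wells overlapped with NDI1. The log2 fold changes were 0.83 ± 0.11 (adjusted p = 1.84e-06), 0.79 ± 0.11 (adjusted p = 3.44e-06) and 0.32 ± 0.13 (adjusted p = 0.576), with 8.87%, 11.2% and 0.00835% of all genes called. Set against the response of control myoblasts, these differed by -0.87 ± 0.15 (adjusted p = 2.17e-05), -0.92 ± 0.15 (adjusted p = 1.1e-05) and -1.39 ± 0.17 (adjusted p = 9e-08).

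The Mt1 response to piericidin was smaller than in control myoblasts with mitoLbNOX and NDI1 and was not called as different with LbNOX. Mt1 went from 244, 231 and 259 to 345, 399 and 369 CPM with LbNOX and from 242, 217 and 255 to 317, 314 and 309 CPM with mitoLbNOX, without overlap in either. With NDI1 it was at 192 and 248 and 219 and 286, which overlapped. The differences from the control response were -0.13 ± 0.13 with LbNOX (adjusted p = 0.448, 95% interval -0.40 to 0.13), -0.35 ± 0.13 with mitoLbNOX (adjusted p = 0.035) and -0.54 ± 0.15 with NDI1 (adjusted p = 0.00466). The mitoLbNOX difference was -0.23 at adjusted p = 0.36 without replicate 3, and the piericidin call in mitoLbNOX myoblasts, 0.39 ± 0.095, became 0.31 at adjusted p = 0.102 without replicate 2. In these 3 tests of a differing piericidin response, 44.3%, 42.8% and 42.7% of all genes were called, in the order LbNOX, mitoLbNOX and NDI1.

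Slc30a1 and Mtf1 were not called with piericidin in any enzyme-expressing line. Slc30a1 was at 2.73, 3.67 and 1.86 CPM with DMSO and 2.57, 2.27 and 1.68 with piericidin in LbNOX myoblasts. Its response differed from that of control myoblasts by -1.39 ± 0.35 with LbNOX (adjusted p = 0.0016), -0.84 ± 0.34 with mitoLbNOX (adjusted p = 0.0483) and -1.14 ± 0.38 with NDI1 (adjusted p = 0.0155). Leaving out a replicate ended these calls, with NDI1 groups then of 1 well whose spread came from the other groups of the fit. Without replicate 1 the 3 values were -1.39 at adjusted p = 0.0505, -0.72 at adjusted p = 0.314 and -0.76 at adjusted p = 0.4, and without replicate 2 they were -1.19 at adjusted p = 0.0667, -0.57 at adjusted p = 0.378 and -1.34 at adjusted p = 0.0863. The mitoLbNOX difference was also lost by the DESeq2 Wald test (-0.85 at adjusted p = 0.0731) and with only the compared groups in the fit (-0.85 at adjusted p = 0.0538). It was lost as well with the replicate number as a block (-0.82 at adjusted p = 0.0547) and without the count filter (-0.84 at adjusted p = 0.328). The NDI1 difference was lost without the count filter (-1.16 at adjusted p = 0.144). The Mtf1 response with LbNOX differed by -0.69 ± 0.23 (adjusted p = 0.0137), and by -0.65 at adjusted p = 0.12 without replicate 2 and -0.67 at adjusted p = 0.0836 without replicate 3. With the counts of the overlapping gene added it was -0.41 at adjusted p = 0.149, and without the count filter -0.71 at adjusted p = 0.0826.

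With antimycin the Mt2 response was smaller with LbNOX than in control or mitoLbNOX myoblasts. In LbNOX myoblasts Mt2 reached 225, 249.7 and 254 CPM (1.61 ± 0.11 against DMSO, adjusted p = 3.02e-13, 46.1% of genes called), and in mitoLbNOX myoblasts 495, 497 and 471 CPM (2.67 ± 0.11, adjusted p = 1.59e-18, 47.7% of genes called). Every LbNOX well lay below every control and mitoLbNOX well. The Mt2 response with LbNOX differed from that of control myoblasts by -1.39 ± 0.15 (adjusted p = 5.81e-09, 51.5% of genes called) and from that with mitoLbNOX by -1.06 ± 0.15 (adjusted p = 2.43e-06, 29.2% of genes called). The mitoLbNOX response differed from the control response by -0.33 ± 0.15, which did not pass (adjusted p = 0.0954, 95% interval -0.63 to -0.035, 31.7% of genes called). It became -0.63 at adjusted p = 0.00125 without replicate 1, -0.26 at adjusted p = 0.34 without replicate 2 and -0.06 at adjusted p = 0.882 without replicate 3. The LbNOX row itself was at 867 to 912 CPM with DMSO and 218 to 313 CPM with antimycin in LbNOX myoblasts, and at 1702 to 1946 and 713 to 865 CPM in mitoLbNOX myoblasts, lower with antimycin in every well. With piericidin it was at 799 to 1080 and 1638 to 1881 CPM, and the part of the transgene level in the antimycin responses was not tested.

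For Mt1 a difference between LbNOX and mitoLbNOX was not called. It reached 467, 511 and 492 CPM with LbNOX (1.06 ± 0.095, adjusted p = 1.94e-10) and 543, 529.8 and 485 CPM with mitoLbNOX (1.14 ± 0.096, adjusted p = 2.49e-11), and the wells of all 3 lines overlapped. The responses differed from that of control myoblasts by -0.50 ± 0.13 (adjusted p = 0.00234) and -0.41 ± 0.13 (adjusted p = 0.0177) and differed between the 2 enzymes by -0.087 ± 0.13 (adjusted p = 0.686). Without replicate 3 the first 2 differences were -0.36 at adjusted p = 0.123 and -0.19 at adjusted p = 0.502, and without replicate 2 the second was -0.40 at adjusted p = 0.0546. Slc30a1 rose with antimycin in mitoLbNOX myoblasts (0.78 ± 0.24, adjusted p = 0.00843), which became 0.65 at adjusted p = 0.181 without replicate 1 and 0.77 at adjusted p = 0.107 without the count filter. In LbNOX myoblasts its value was 0.35 ± 0.25 (adjusted p = 0.256). The Mtf1 response with LbNOX differed from that of control myoblasts by -0.61 ± 0.23 (adjusted p = 0.0272), by -0.34 at adjusted p = 0.401 without replicate 2, by -0.64 at adjusted p = 0.13 without the count filter, and by -0.077 at adjusted p = 0.797 with the counts of the overlapping gene added. The sum of both genes was called higher with antimycin in LbNOX (0.51 at adjusted p = 0.00827, with Mtf1 alone at -0.17 ± 0.16, adjusted p = 0.423) and mitoLbNOX myoblasts (0.56 at adjusted p = 0.00409, with Mtf1 alone at 0.32 ± 0.17, adjusted p = 0.112). In LbNOX myoblasts 1110065P20Rik itself rose (1.44 at adjusted p = 0.00364), and in mitoLbNOX myoblasts it was at 0.86 at adjusted p = 0.0747.

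With oligomycin Mt2 rose in LbNOX myoblasts as well. In LbNOX myoblasts Mt2 was at 183, 157 and 166 CPM (1.07 ± 0.11 against DMSO, adjusted p = 2.56e-09, 35.2% of genes called), and the difference from the control response was -0.37 ± 0.15 (adjusted p = 0.149, 95% interval -0.67 to -0.071, 7.98% of genes called). That difference was -0.48 at adjusted p = 0.0354 without replicate 1, -0.42 at adjusted p = 0.279 without replicate 2 and -0.20 at adjusted p = 0.718 without replicate 3. Mt1 was at 277, 259 and 246 CPM, overlapping DMSO (0.13 ± 0.095, adjusted p = 0.293), as it did in control myoblasts. Mtf1 fell with oligomycin in LbNOX myoblasts, from 9.29, 10.1 and 10.5 to 7.86, 5.68 and 4.86 CPM (-0.66 ± 0.17, adjusted p = 0.00248), which became -0.45 at adjusted p = 0.134 without replicate 3 and -0.26 at adjusted p = 0.231 with the counts of the overlapping gene added. The difference from the control response, -0.82 ± 0.23 (adjusted p = 0.0263), became -0.90 at adjusted p = 0.076, -0.82 at adjusted p = 0.191 and -0.71 at adjusted p = 0.219 without replicates 1, 2 and 3 in turn, and -0.40 at adjusted p = 0.349 with the counts added. That call was also lost without the count filter (-0.82 at adjusted p = 0.142) and with only the compared groups in the fit (-0.82 at adjusted p = 0.104). Slc30a1 gave 0.59 ± 0.24 with oligomycin in LbNOX myoblasts (adjusted p = 0.0611), and 0.67 at adjusted p = 0.0324 with plate position as a covariate. Ndrg1, the listed gene with the largest increase, had log2 responses in LbNOX myoblasts of 1.32 ± 0.064 to piericidin, 1.63 ± 0.064 to antimycin and 2.67 ± 0.064 to oligomycin, which differed from the control responses by -2.87 ± 0.089, -3.25 ± 0.089 and -0.78 ± 0.087, all past the threshold.

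Chloramphenicol for 48 hr also raised both metallothioneins in control myoblasts. Mt2 was at 44.6 and 37.3 CPM with DMSO and 71.3 and 61.6 with chloramphenicol (0.75 ± 0.14, adjusted p = 0.0145), and Mt1 at 144 and 124 and 183 and 172 (0.45 ± 0.092, adjusted p = 0.0195), with 8.45% of all genes called. Both calls rest on 2 wells a group. In this fit a replicate number was left out of the compared groups only. With either number left out, 1 well stood against 1 and the spread came from the LbNOX groups of the fit. Neither call was then made. Mt2 was then 0.76 at adjusted p = 0.114 without replicate 1 and 0.71 at adjusted p = 0.16 without replicate 2, and Mt1 0.51 at adjusted p = 0.0973 and 0.38 at adjusted p = 0.202. In LbNOX myoblasts Mt2 was at 58.2 and 71.2 and 59.8 and 73.2 CPM (0.046 ± 0.14, adjusted p = 0.92) and Mt1 at 199 and 222 and 192 and 219.5 (-0.029 ± 0.092, adjusted p = 0.923), with 0.931% of genes called. The LbNOX DMSO wells already lay above the control DMSO wells, by 0.66 ± 0.092 for Mt1 (adjusted p = 0.0335), or 0.49 at adjusted p = 0.378 with 1 well against 1, without replicate 2, 0.66 at adjusted p = 0.166 with only these groups in the fit and 0.66 at adjusted p = 0.0929 with the replicate number as a block, and 0.67 ± 0.14 for Mt2 (adjusted p = 0.137), with 0.248% of genes called. The chloramphenicol responses of the 2 lines did not differ past the threshold for Mt2 (-0.70 ± 0.20, adjusted p = 0.256, 95% interval -1.10 to -0.30) or Mt1 (-0.48 ± 0.13, adjusted p = 0.228), where 0.530% of genes were called. Slc30a1 and Mtf1 were not called in these 4 contrasts.

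In untransduced myotubes the inhibitors lowered Mt1, and antimycin lowered Mt2. Mt1 was at 162, 184 and 183 CPM with DMSO, 137, 113 and 127 with piericidin, 111, 110.2 and 147 with antimycin and 143, 106 and 149 with oligomycin. Each inhibitor well lay below each DMSO well. The log2 fold changes were -0.47 ± 0.13 (adjusted p = 0.0202), -0.51 ± 0.13 (adjusted p = 0.00869) and -0.38 ± 0.13 (adjusted p = 0.0252), with 8.99%, 12.9% and 33.3% of all genes called. Mt2 was at 57.3, 69.9 and 66.8 CPM with DMSO, 52.5, 43.4 and 52.5 with piericidin, 37.7, 43.6 and 50.7 with antimycin and 77.9, 57.6 and 75.5 with oligomycin. It fell with antimycin (-0.54 ± 0.14, adjusted p = 0.00873), while piericidin (-0.37 ± 0.14, adjusted p = 0.105) and oligomycin (0.15 ± 0.13, adjusted p = 0.414) did not pass. Without replicate 2 of every group the Mt1 values became -0.36 at adjusted p = 0.3, -0.41 at adjusted p = 0.188 and -0.21 at adjusted p = 0.407 and the Mt2 antimycin value -0.49 at adjusted p = 0.143, without replicate 3 the Mt1 piericidin value was -0.45 at adjusted p = 0.0643. The Mt2 piericidin value was -0.52 at adjusted p = 0.0286 without replicate 1, -0.22 at adjusted p = 0.621 without replicate 2 and -0.39 at adjusted p = 0.22 without replicate 3. With plate position as a covariate the Mt1 oligomycin value was -0.36 at adjusted p = 0.0549.

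Uncoupling and hypoxia raised both metallothioneins in myotubes. With BAM15 Mt2 was at 131, 128 and 136 CPM and Mt1 at 299, 290.1 and 279, and in hypoxia Mt2 was at 155, 128 and 101 and Mt1 at 352, 304 and 237. All these wells lay above the DMSO wells. BAM15 gave 1.08 ± 0.13 for Mt2 (adjusted p = 1.29e-06) and 0.77 ± 0.13 for Mt1 (adjusted p = 6.91e-05), with 25.4% of genes called, and hypoxia gave 1.03 ± 0.13 (adjusted p = 1.85e-06) and 0.80 ± 0.13 (adjusted p = 3.22e-05), with 22.1% called. Ndrg1 rose with both, by 2.11 ± 0.069 and 2.16 ± 0.069, and fell with piericidin (-0.86 ± 0.069) and antimycin (-0.77 ± 0.068). The summed level of 4 proliferation markers was 85.9 to 103 CPM with DMSO, 80.8 to 102 CPM with BAM15 and 21.0 to 24.2 CPM in hypoxia. In hypoxia 3 of the 4 (Top2a, Mki67 and Ccnb1) lay below all DMSO wells, Myf5 overlapped them, and the part of this in the metallothionein values was not tested. Slc30a1 and Mtf1 were called in none of the contrasts within myotubes. Slc30a1 ran from 1.27 to 2.85 CPM with DMSO and from 2.72 to 2.91 CPM with oligomycin and BAM15, where its value against DMSO was the largest among untransduced myotubes (0.49 ± 0.30, adjusted p = 0.239). The sum of Mtf1 and the overlapping gene was called lower with BAM15 (-0.42 at adjusted p = 0.0192, with Mtf1 alone at -0.24 ± 0.16, adjusted p = 0.295), where 1110065P20Rik itself fell (-0.66 at adjusted p = 0.0216). That sum was called higher with oligomycin in hypoxia than with oligomycin alone (0.38 at adjusted p = 0.0264), where 1110065P20Rik was at 0.47 at adjusted p = 0.0833. Among exporters, Slc30a9 fell with oligomycin (-1.28 ± 0.39) and BAM15 (-1.07 ± 0.38), Slc30a5, which loads zinc into the secretory pathway, fell with oligomycin (-0.68 ± 0.17) and with BAM15 (-0.61 ± 0.16), and the iron exporter gene Slc40a1 rose with oligomycin (1.02 ± 0.11) and fell in hypoxia (-1.06 ± 0.12).

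In the paper the combinations tested what attenuates the stress response to oligomycin. For the metallothioneins, oligomycin alone lowered Mt1 and was not called for Mt2, so Mt2 had no called effect to relieve. Differences from oligomycin alone also contain the effect of BAM15 or hypoxia by itself. The Mt2 response to oligomycin was not called as changed by BAM15 or by hypoxia. Oligomycin with BAM15 brought Mt2 to 147, 189.6 and 178 CPM and Mt1 to 273, 337 and 344, the highest Mt2 level among myotubes by mean. Against DMSO the changes were 1.47 ± 0.13 (adjusted p = 8.03e-09) and 0.91 ± 0.13 (adjusted p = 6.85e-06; 23.2% of genes called), and against oligomycin alone 1.32 ± 0.13 (adjusted p = 2.81e-08) and 1.29 ± 0.13 (adjusted p = 2.44e-08; 26.1% of genes called). Oligomycin in hypoxia gave 106, 131 and 119 CPM of Mt2 and 236, 275 and 269 of Mt1, differing from oligomycin alone by 0.77 ± 0.13 (adjusted p = 5.65e-05) and 0.99 ± 0.13 (adjusted p = 1.12e-06; 33.3% of genes called) and from DMSO by 0.93 ± 0.13 (adjusted p = 1.08e-05) and 0.62 ± 0.13 (adjusted p = 0.000853; 18.5% called). Within hypoxia oligomycin moved neither past the threshold (Mt2 -0.098 ± 0.13, adjusted p = 0.821, 95% interval -0.35 to 0.16; Mt1 -0.18 ± 0.13, adjusted p = 0.553), with 4.26% called.

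Oligomycin with piericidin gave 65.1, 68.0 and 74.9 CPM of Mt2 and 175, 179.7 and 182 of Mt1, within the range of the DMSO wells for Mt1 (0.055 ± 0.13 against DMSO, adjusted p = 0.837, 95% interval -0.19 to 0.30; 12.8% of genes called). Against oligomycin alone Mt1 was higher by 0.43 ± 0.13 (adjusted p = 0.0171, 20.9% of genes called), or 0.29 at adjusted p = 0.313 without replicate 2. Each inhibitor alone lowered Mt1 and the pair was not called, and the test of that difference in the oligomycin response gave 0.90 ± 0.18 (adjusted p = 0.000958; 14.6% of genes called), or 0.65 at adjusted p = 0.115 without replicate 2. For Mt2 it was 0.35 ± 0.19 (adjusted p = 0.249), and 0.61 at adjusted p = 0.0413 without replicate 1, 0.0898 at adjusted p = 0.889 without replicate 2 and 0.37 at adjusted p = 0.359 without replicate 3. BAM15 changed the Mt1 response to oligomycin by 0.52 ± 0.18 (adjusted p = 0.0445; 18.6% of genes called), which became 0.31 at adjusted p = 0.476 without replicate 2 and 0.50 at adjusted p = 0.0747 without replicate 3, and 0.49 at adjusted p = 0.103 with plate position as a covariate, and hypoxia changed it by 0.19 ± 0.18 (adjusted p = 0.514; 17.4% called).

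**Figure D4:**
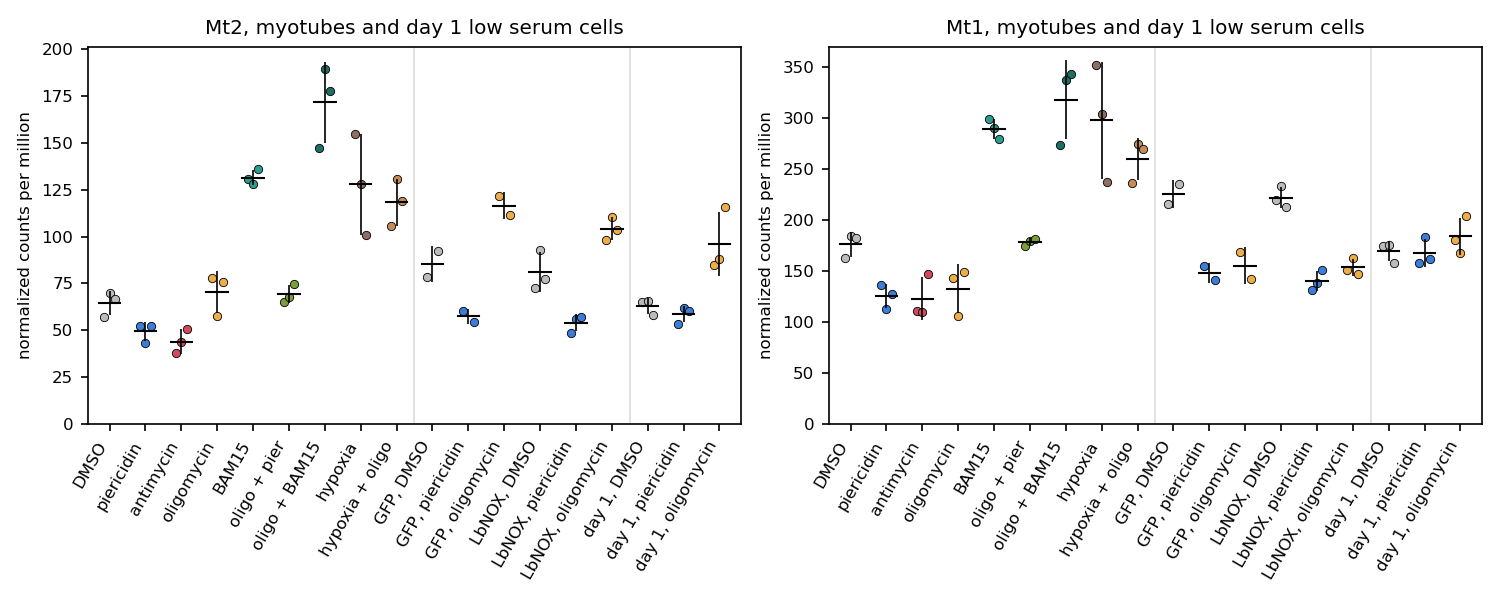
TMM-scaled CPM (vertical axes, linear, from 0) of Mt2 and Mt1 in untransduced myotubes, in GFP or LbNOX myotubes and in day 1 low serum cells, left to right. Points are wells, horizontal lines means and vertical lines 1 SD. BAM15, hypoxia and their combinations with oligomycin lie above the DMSO wells for both genes, and oligomycin alone lies at 106 to 149 CPM of Mt1 against 162 to 184 CPM with DMSO.

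In transduced myotubes oligomycin moved Mt1 and Mt2 in opposite directions. In GFP myotubes Mt2 was at 78.7 and 92.2 CPM with DMSO and 122 and 111 with oligomycin (0.44 ± 0.11, adjusted p = 0.0107), and Mt1 at 216 and 235 and 168 and 142 (-0.55 ± 0.082, adjusted p = 0.000152; 25.9% of genes called). In LbNOX myotubes Mt2 was at 72.4, 93.1 and 77.6 and 98.4, 111 and 103 (0.36 ± 0.093, adjusted p = 0.00815), and Mt1 at 220.1, 233 and 213 and 151, 163 and 147 (-0.53 ± 0.067, adjusted p = 2.27e-05; 32.0% called). Neither gene's wells overlapped between oligomycin and DMSO in either line. The Mt2 values were 0.28 at adjusted p = 0.215 without replicate 1 in GFP myotubes, then with 1 well a group, and 0.34 at adjusted p = 0.0817 without replicate 3 in LbNOX myotubes.

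Piericidin lowered both metallothioneins in transduced myotubes. Mt1 was at 155 and 141 CPM in GFP (-0.62 ± 0.082, adjusted p = 0.000565) and 131, 138 and 151 in LbNOX myotubes (-0.68 ± 0.067, adjusted p = 2.11e-05). Mt2 was at 60.1 and 54.6 (-0.59 ± 0.12, adjusted p = 0.0116) and 48.7, 56.3 and 57.4 (-0.60 ± 0.095, adjusted p = 0.00144), with 3.09% and 6.78% of genes called in the 2 lines. In GFP myotubes the values without replicate 2, with 1 well a group and the spread taken from the LbNOX groups, were -0.50 at adjusted p = 0.0569 for Mt1 and -0.41 at adjusted p = 0.164 for Mt2, and with only the compared groups in the fit they were -0.62 at adjusted p = 0.0616 and -0.59 at adjusted p = 0.141. LbNOX itself left the members uncalled under DMSO (0.0242% of genes called), and its effect on the piericidin and oligomycin responses was called for 0% and 0% of genes, although 567 and 525 genes had an unadjusted p below 0.05 and the DESeq2 Wald test called 2 and 1. For Mt1 and Mt2 the 95% intervals of that effect were -0.26 to 0.15 and -0.30 to 0.29 with piericidin and -0.19 to 0.22 and -0.36 to 0.21 with oligomycin. Slc30a1 and Mtf1 were not called.

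In day 1 low serum cells 1 member was called, Mt2, with oligomycin. Mt2 was at 65.3, 65.7 and 58.1 CPM with DMSO, 53.6, 61.6 and 60.4 with piericidin and 84.9, 87.9 and 116 with oligomycin. Oligomycin gave 0.62 ± 0.11 (adjusted p = 0.00218, or 0.40 at adjusted p = 0.0206 without replicate 3, with 20.7% of genes called) and piericidin -0.11 ± 0.11 (adjusted p = 0.719; 2.75% called). Mt1 was at 175, 175 and 158 with DMSO, 157, 183 and 162 with piericidin and 180.3, 168 and 204 with oligomycin, with values of -0.016 ± 0.078 (adjusted p = 0.944) and 0.12 ± 0.078 (adjusted p = 0.311). Slc30a1 and Mtf1 were called with neither.

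The metallothionein responses of myotubes to all 3 inhibitors differed from those of control myoblasts. In day 1 low serum cells, which received no antimycin, the piericidin responses of both genes and the oligomycin response of Mt2 differed from those of control myoblasts. Serum, doxycycline and the luciferase transgene change with the state and cannot be told apart from it. Plate position differed too, with 3 of 3 control myoblast, 3 of 3 day 1 and 0 of 3 myotube DMSO samples on the plate edge. Under DMSO Mt2 was not called between any pair of states, with -0.089 ± 0.13 for myotubes against control myoblasts (adjusted p = 0.57, 95% interval -0.35 to 0.17). Mt1 in myotubes against control myoblasts gave -0.19 ± 0.11 (adjusted p = 0.136). This value was called without the count filter (-0.22 at adjusted p = 0.00524), with only the compared groups in the fit (-0.19 at adjusted p = 0.0283) and with plate position as a covariate (-0.34 at adjusted p = 0.032). Mt1 differed in day 1 low serum cells from myoblasts by -0.26 ± 0.11 (adjusted p = 0.0441), a call lost on leaving out any replicate number, with -0.23 at adjusted p = 0.164, -0.25 at adjusted p = 0.0926 and -0.21 at adjusted p = 0.186 without replicates 1, 2 and 3 in turn. It was also lost by the DESeq2 Wald test (-0.23 at adjusted p = 0.095) and with DESeq2 size factors in edgeR (-0.23 at adjusted p = 0.0829). Mtf1 was higher in day 1 low serum cells (0.51 ± 0.15, adjusted p = 0.00521) and myotubes (0.61 ± 0.15, adjusted p = 0.000998) than in myoblasts, at 13.0, 11.5 and 12.6, 14.6, 14.0 and 10.9 and 9.10, 8.04 and 8.68 CPM in that order. With the counts of the overlapping gene added these were 0.53 at adjusted p = 0.00207 and 1.00 at adjusted p = 3.72e-07. The difference of myotubes from day 1 low serum cells went from 0.10 ± 0.15 (adjusted p = 0.649) to 0.48 at adjusted p = 0.00759. Here 1110065P20Rik itself was higher in myotubes than in day 1 low serum cells (1.06 at adjusted p = 0.00544) and myoblasts (1.63 at adjusted p = 2.88e-05). Slc30a1 gave -0.58 ± 0.27 for myotubes (adjusted p = 0.0626), or -0.38 at adjusted p = 0.35, -0.95 at adjusted p = 0.0352 and -0.47 at adjusted p = 0.239 without replicates 1, 2 and 3 in turn, and -0.60 ± 0.27 for day 1 low serum cells (adjusted p = 0.0532). Of all genes 63.6% were called between day 1 low serum cells and myoblasts, 69.4% between myotubes and myoblasts and 35.6% between myotubes and day 1 low serum cells.

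The myotube response minus the myoblast response was, for Mt2, -2.04 ± 0.19 for piericidin (adjusted p = 6.83e-10), -3.50 ± 0.19 under antimycin (adjusted p = 7.54e-15) and -1.28 ± 0.19 when oligomycin was given (adjusted p = 6.01e-06). For Mt1 the differences were -1.17 ± 0.16 (adjusted p = 7.84e-07), -2.02 ± 0.16 (adjusted p = 2.62e-11) and -0.47 ± 0.16 (adjusted p = 0.0277), the last of which became -0.30 at adjusted p = 0.255 without replicate 2, -0.46 at adjusted p = 0.098 without replicate 3 and -0.28 at adjusted p = 0.342 with plate position as a covariate. Of all genes 46.5%, 47.9% and 29.0% were called in these 3 tests. Day 1 low serum cells already differed from myoblasts in the piericidin response of Mt2 (-1.76 ± 0.19, adjusted p = 8.89e-09) and Mt1 (-0.70 ± 0.16, adjusted p = 0.000626), with 46.6% of genes called. For oligomycin they differed in Mt2 (-0.79 ± 0.19, adjusted p = 0.00224) and not past the threshold in Mt1 (0.064 ± 0.16, adjusted p = 0.819), with 24.9% called. Responses of myotubes and of day 1 low serum cells were not tested against each other. The Slc30a1 response to piericidin in day 1 low serum cells minus that in myoblasts was -0.86 ± 0.38 (adjusted p = 0.064), or -0.60 at adjusted p = 0.369, -0.87 at adjusted p = 0.187 and -1.29 at adjusted p = 0.0455 without replicates 1, 2 and 3 in turn. For myotubes it was -0.92 ± 0.39 (adjusted p = 0.0514), or -0.94 at adjusted p = 0.0472 with DESeq2 size factors in edgeR. The Mtf1 response to piericidin differed from that in myoblasts by -0.72 ± 0.22 in myotubes (adjusted p = 0.00805, or -0.72 at adjusted p = 0.0547 without replicate 1) and -0.61 ± 0.22 in day 1 low serum cells (adjusted p = 0.0227, or -0.66 at adjusted p = 0.0804 without replicate 1, -0.51 at adjusted p = 0.153 without replicate 3 and -0.62 at adjusted p = 0.113 without the count filter). With the counts of the overlapping gene added, the Mtf1 response to antimycin of myotubes minus that of myoblasts went from -0.39 ± 0.22 (adjusted p = 0.14) to -0.52 at adjusted p = 0.0329, with 1110065P20Rik at -0.77 at adjusted p = 0.133.

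Within a library the ratio of Mt2 to Mt1 counts does not depend on depth or scaling, and it separated oligomycin from piericidin in every cell state. In the 10 DMSO conditions outside hypoxia, mean ratios lay between 0.305 and 0.379. In control myoblasts the ratio was 0.363, 0.343 and 0.316 with DMSO, 0.661, 0.662 and 0.683 with piericidin, 0.877, 0.948 and 0.951 with antimycin and 0.917, 0.855 and 0.829 with oligomycin. With oligomycin it was 0.660, 0.606 and 0.676 in LbNOX myoblasts, 0.543, 0.545 and 0.506 in untransduced myotubes, 0.722 and 0.783 in GFP myotubes, 0.654, 0.677 and 0.703 in LbNOX myotubes and 0.471, 0.523 and 0.569 in day 1 low serum cells. In these 6 settings every oligomycin well lay above every DMSO well of the same line and state. With piericidin the ratio was 0.384, 0.383 and 0.413 in untransduced myotubes, just above the DMSO wells at 0.353, 0.379 and 0.366, and 0.340, 0.336 and 0.373 in day 1 low serum cells, overlapping the DMSO wells at 0.374, 0.374 and 0.367. Piericidin given with oligomycin brought it to 0.373, 0.379 and 0.412 in myotubes, below every well with oligomycin alone, whereas with BAM15 and oligomycin it was 0.540, 0.562 and 0.518. With BAM15 alone it was 0.438, 0.441 and 0.487 and in hypoxia alone 0.439, 0.421 and 0.426, above every DMSO well, and with oligomycin in hypoxia it was 0.446, 0.475 and 0.443, below every well with oligomycin alone. With antimycin it was 0.496 ± 0.0186 (SD, n = 3) in LbNOX and 0.940 ± 0.0294 (SD, n = 3) in mitoLbNOX myoblasts. No test was made on these ratios, which describe the wells only. An exact permutation test of 3 wells against 3 cannot go below 0.1, and a model of the ratio over all wells was not fitted. A ratio shows that the 2 genes changed unequally, not which one did.

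**Figure D5:**
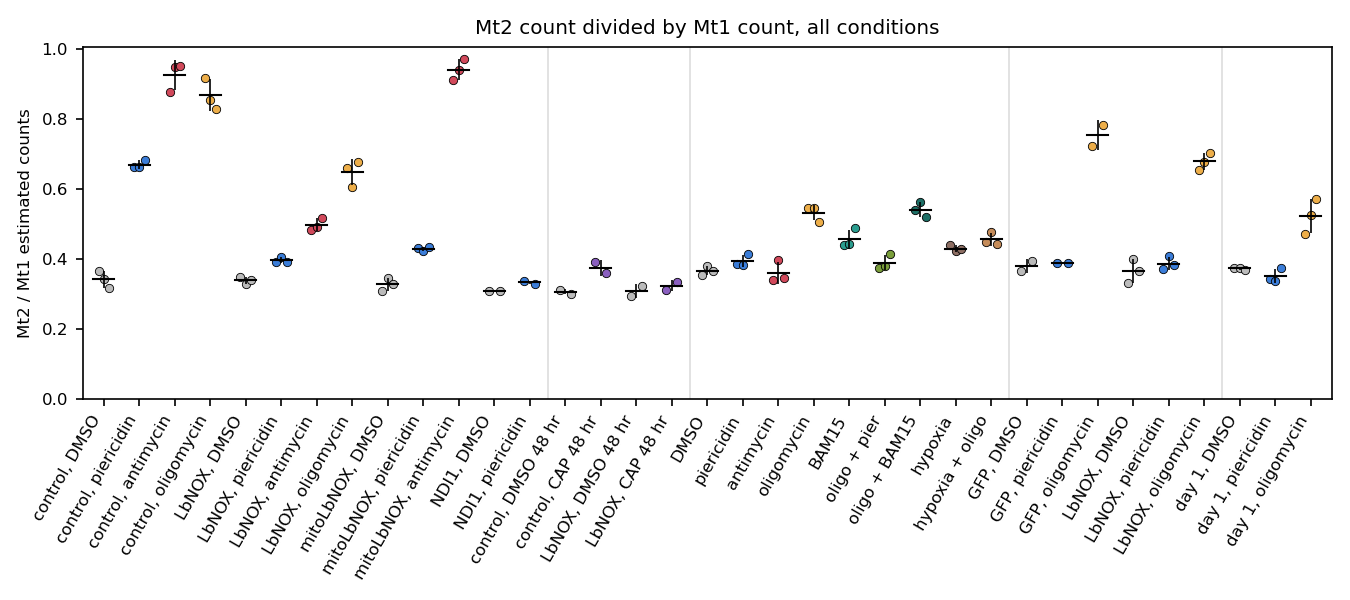
Mt2 counts divided by Mt1 counts (vertical axis, linear, from 0) in all 35 conditions, with points for wells, horizontal lines for means and vertical lines for 1 SD. Grey lines part the 10 hr myoblasts, 48 hr myoblasts, untransduced myotubes, transduced myotubes and day 1 low serum cells. Yellow oligomycin points lie above the grey DMSO points of the same line, from 0.471 in day 1 low serum cells to 0.917 in control myoblasts.

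Ordered by mean level over all 35 conditions, Mt2 spanned 13.1-fold, from 37.3 to 44.6 CPM in 48 hr control DMSO myoblasts to 436 to 588 CPM in control myoblasts with antimycin. Control and mitoLbNOX myoblasts with antimycin stood first and second and overlapped, and a gap from 254 to 436 CPM parted them from the third, LbNOX myoblasts with antimycin. The fourth, control myoblasts with piericidin, overlapped the third and not the fifth, control myoblasts with oligomycin. Mt1 spanned 4.70-fold, from 110.2 to 147 CPM in myotubes with antimycin to 497 to 620.4 CPM in control myoblasts with antimycin, and its 3 highest conditions were the 3 antimycin myoblast lines. In this order 31 of 34 neighbouring conditions overlapped for Mt2 and also 31 for Mt1. For Slc30a1, which spanned 3.44-fold, 33 overlapped, and for Mtf1, which spanned 2.58-fold, 34.

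Likeness of pattern was described by Pearson's r over the 35 condition means of log2 CPM, among 10180 other genes. The conditions were grouped here into 5 sample sets by cell state, treatment time and transduction, which no label names as experiments. Before r was computed, the mean of each sample set was subtracted. The value without that step (uncentred) stands beside each r, and for several genes it is near 0 or negative. Conditions share control wells and all genes share libraries, so no p is given. The 5 genes most like Mt2 were Ndrg1 (r = 0.897, uncentred 0.623), Ero1l (r = 0.867, uncentred 0.825), Ostf1 (r = 0.856, uncentred 0.789), Ddit4 (r = 0.855, uncentred 0.768) and Lgals3 (r = 0.854, uncentred 0.803). Among the 5 most like Mt1 were Eno2 (r = 0.852, uncentred -0.0641), Mt2 (r = 0.831, uncentred 0.876), R3hcc1 (r = 0.784, uncentred 0.579) and Rcor2 (r = 0.779, uncentred 0.109), where Mt2 ranked second. The metallothioneins were less like the other members, with centred r of 0.487 for Mt2 and 0.152 for Mt1 with Slc30a1, and 0.198 and 0.188 with Mtf1. Among the 5 most like Slc30a1 were Mmp19 (r = 0.875, uncentred 0.0529), Stambpl1 (r = 0.829, uncentred 0.569), Wfs1 (r = 0.82, uncentred -0.47) and Tax1bp1 (r = 0.819, uncentred -0.105), and among those most like Mtf1 were Pcmt1 (r = 0.785, uncentred 0.936), Tbcc (r = 0.768, uncentred 0.747), Zfp142 (r = 0.745, uncentred -0.499) and Cggbp1 (r = 0.726, uncentred -0.393).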

How the data were processed

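Poly(A) RNA from 96 wells of C2C12 cells was sequenced by a Smart-seq2 protocol that keeps no strand. The authors deposited unnormalized estimated counts per gene, made with kallisto (version 0.44 per the submitters' processing notes) against mouse transcripts and the transgenes, summarised by gene and summed over 2 flow cells. Pseudoalignment divides reads shared by genes with the same sequence, so overlapping genes can take counts from each other.

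The estimated counts, as deposited, were rounded to whole numbers. Genes were kept where all replicates of 1 or more conditions had 16 counts or more, and were tested in 6 fits (10 hr myoblasts, 48 hr myoblasts, untransduced myotubes, transduced myotubes, day 1 low serum cells, cell states) with edgeR 4.0.16 in R 4.3.3 (TMM, quasi-likelihood F test, 2-sided). Benjamini-Hochberg adjustment ran over all genes of a comparison at a threshold of 0.05, in 58 comparisons. The SE of a log2 fold change was its size over the root of F. CPM levels use TMM factors over all 96 libraries, whereas fold changes use those of each fit. Totals of 6458295 to 15366745 counts set the precision, and intervals cover the spread between wells. The model step was tested on simulated data. Alternatives were DESeq2 1.42.0, its size factors, no count filter, fewer groups, the replicate number as a block, plate position and each replicate left out.

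The members and lists were chosen with earlier results of these data known. The text names the 4 members, for each comparison described at most the 3 called genes of the zinc and metal lists with the largest change in each direction, and for each member the 5 genes most like it over condition means of log2 CPM (prior count 2), leaving out unnamed predicted genes, and 3 of these like genes are not reported here. Values of a listed gene in further comparisons were added after they were seen. No replicate pair of 87 had identical counts. The gene positions come from GENCODE vM21 and the promoter windows from RefSeq, both on GRCm38. Protein sequences were not used here.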

Additional observations from a re-analysis of the deposited data

Results flagged for a closer look

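The 72 tests of a difference between responses (18 comparisons of 4 members, by edgeR's quasi-likelihood test adjusted over all genes in each comparison) passed the threshold in 28 cases, in comparisons that called from 0% to 51.5% of all genes, and each is given as the log2 difference ± SE. Among the comparisons with member calls, those of enzyme-expressing with control myoblasts called 42.7% to 44.3% of all genes for piericidin, 31.7% and 51.5% for antimycin and 7.98% for oligomycin. LbNOX against mitoLbNOX called 29.2%, the comparisons within myotubes 14.6% and 18.6% and those between cell states 24.9% to 47.9%. Where such shares are high, a call by itself sets no member apart. Since the members and their main pattern were known from earlier results of these data, these values describe the samples.

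In myoblasts the response to piericidin differed between LbNOX and control cells for Mt2 by -0.87 ± 0.15 (adjusted p = 2.17e-05), Slc30a1 by -1.39 ± 0.35 (adjusted p = 0.0016) and Mtf1 by -0.69 ± 0.23 (adjusted p = 0.0137). Between mitoLbNOX and control cells it differed for Mt1 by -0.35 ± 0.13 (adjusted p = 0.035), Mt2 by -0.92 ± 0.15 (adjusted p = 1.1e-05) and Slc30a1 by -0.84 ± 0.34 (adjusted p = 0.0483). Between NDI1 and control cells it differed for Mt1 by -0.54 ± 0.15 (adjusted p = 0.00466), Mt2 by -1.39 ± 0.17 (adjusted p = 9e-08) and Slc30a1 by -1.14 ± 0.38 (adjusted p = 0.0155). The response to antimycin differed between LbNOX and control cells for Mt1 by -0.50 ± 0.13 (adjusted p = 0.00234), Mt2 by -1.39 ± 0.15 (adjusted p = 5.81e-09) and Mtf1 by -0.61 ± 0.23 (adjusted p = 0.0272), and between mitoLbNOX and control cells for Mt1 by -0.41 ± 0.13 (adjusted p = 0.0177). Between LbNOX and mitoLbNOX cells it differed for Mt2 by -1.06 ± 0.15 (adjusted p = 2.43e-06). The response to oligomycin differed between LbNOX and control cells for Mtf1 by -0.82 ± 0.23 (adjusted p = 0.0263). Reads of Mtf1 are shared with an overlapping gene on the opposite strand, and all 3 of these Mtf1 calls were lost when the counts of that gene were added. The Slc30a1 calls, the Mt1 calls with mitoLbNOX and the Mt1 antimycin call with LbNOX were each lost on leaving out a replicate, as given above.

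In untransduced myotubes the Mt1 response to oligomycin was changed by piericidin by 0.90 ± 0.18 (adjusted p = 0.000958) and by BAM15 by 0.52 ± 0.18 (adjusted p = 0.0445). Both calls were lost without replicate 2, as given above.

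Between cell states, the piericidin response of myotubes minus that of control myoblasts was -1.17 ± 0.16 (adjusted p = 7.84e-07) for Mt1, -2.04 ± 0.19 (adjusted p = 6.83e-10) for Mt2 and -0.72 ± 0.22 (adjusted p = 0.00805) for Mtf1. The antimycin responses differed by -2.02 ± 0.16 (adjusted p = 2.62e-11) for Mt1 and -3.50 ± 0.19 (adjusted p = 7.54e-15) for Mt2, and the oligomycin responses by -0.47 ± 0.16 (adjusted p = 0.0277) for Mt1 and -1.28 ± 0.19 (adjusted p = 6.01e-06) for Mt2. For day 1 low serum cells minus control myoblasts, the piericidin responses differed by -0.70 ± 0.16 (adjusted p = 0.000626) for Mt1, -1.76 ± 0.19 (adjusted p = 8.89e-09) for Mt2 and -0.61 ± 0.22 (adjusted p = 0.0227) for Mtf1, and the oligomycin response by -0.79 ± 0.19 (adjusted p = 0.00224) for Mt2. Serum, doxycycline and transgene cannot be told apart from the state in these tests, and plate position differed with it too. The Mt1 oligomycin call and both Mtf1 piericidin calls were each lost under an alternative setting, as given above.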

How the results depend on the processing

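Of 2106 alternative values of the 4 members, 1988 kept their side of the threshold, 85 lost a call, 32 gained one and 1 became a call of the other sign. Below, a treatment in a cell type means that treatment against DMSO, minus marks a difference of 2 such responses, CAP is chloramphenicol and Mt calls are those of Mt1 and Mt2. Signs changed in 103 further values past neither threshold. With the DESeq2 Wald test, and also with its size factors in edgeR, the Mt calls lost were 0.26 for Mt2, piericidin against oligomycin in control myoblasts and -0.23 for Mt1, day 1 cells against control DMSO myoblasts. With the Wald test the Mt calls gained were 0.68 for Mt2, LbNOX against control 48 hr DMSO myoblasts and -0.47 for Mt1, CAP in LbNOX minus control myoblasts. Without the count filter the Mt calls gained were 0.30 for Mt2, piericidin in NDI1 myoblasts, 0.28 for Mt1 and 0.26 for Mt2, LbNOX against control DMSO myoblasts, 0.24 for Mt1, mitoLbNOX against control DMSO myoblasts, -0.35 for Mt2, antimycin in mitoLbNOX minus control myoblasts, -0.36 for Mt2, oligomycin in LbNOX minus control myoblasts, 0.65 for Mt2, LbNOX against control 48 hr DMSO myoblasts, -0.44 for Mt1 and -0.66 for Mt2, CAP in LbNOX minus control myoblasts, -0.39 for Mt2, piericidin in myotubes, 0.37 for Mt2, oligomycin in myotubes with piericidin minus without and -0.22 for Mt1, myotubes against control DMSO myoblasts. In the smaller fit of the compared groups alone, the Mt calls lost were 0.66 for Mt1, LbNOX against control 48 hr DMSO myoblasts and -0.62 for Mt1 and -0.59 for Mt2, piericidin in GFP myotubes. There the Mt calls gained were -0.37 for Mt2, piericidin in myotubes and -0.19 for Mt1, myotubes against control DMSO myoblasts. With plate position as a covariate the Mt calls lost were -0.36 for Mt1, oligomycin in myotubes, 0.49 for Mt1, oligomycin in myotubes with BAM15 minus without and -0.28 for Mt1, oligomycin in myotubes minus control myoblasts. There the Mt calls gained were -0.34 for Mt1, myotubes against control DMSO myoblasts. Of Slc30a1 and Mtf1, the calls lost were 2 by the Wald test, 10 without the count filter, 3 in the smaller fit and 1 with the block, and those gained 1 with DESeq2 size factors and 1 with plate position. The cause was not tested.

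Leaving out each replicate number in turn changed calls of metallothioneins. Their log2 values then ran from 0.31 to 0.47 for Mt1, piericidin in mitoLbNOX myoblasts, 0.24 to 0.26 for Mt2, piericidin against oligomycin in control myoblasts, -0.39 to -0.23 for Mt1, piericidin in mitoLbNOX minus control myoblasts and -0.64 to -0.36 for Mt1, antimycin in LbNOX minus control myoblasts. Others ran from -0.61 to -0.19 for Mt1 and -0.63 to -0.06 for Mt2, antimycin in mitoLbNOX minus control myoblasts, -0.48 to -0.20 for Mt2, oligomycin in LbNOX minus control myoblasts, 0.38 to 0.51 for Mt1 and 0.71 to 0.76 for Mt2, CAP in control myoblasts and 0.49 to 0.85 for Mt1, LbNOX against control 48 hr DMSO myoblasts. Next, values ran from -0.62 to -0.36 for Mt1 and -0.52 to -0.22 for Mt2, piericidin in myotubes, -0.64 to -0.41 for Mt1 and -0.64 to -0.49 for Mt2, antimycin in myotubes, -0.50 to -0.21 for Mt1, oligomycin in myotubes and 0.29 to 0.51 for Mt1, oligomycin with piericidin against oligomycin alone in myotubes. Further values ran from 0.65 to 1.12 for Mt1 and 0.0898 to 0.61 for Mt2, oligomycin in myotubes with piericidin minus without, 0.31 to 0.76 for Mt1, oligomycin in myotubes with BAM15 minus without, -0.72 to -0.50 for Mt1 and -0.74 to -0.41 for Mt2, piericidin in GFP myotubes and 0.28 to 0.60 for Mt2, oligomycin in GFP myotubes. The rest ran from 0.33 to 0.43 for Mt2, oligomycin in LbNOX myotubes, -0.25 to -0.21 for Mt1, day 1 cells against control DMSO myoblasts and -0.65 to -0.30 for Mt1, oligomycin in myotubes minus control myoblasts. None could be had for CAP in LbNOX minus control myoblasts, with no residual degrees of freedom left.

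Replicate numbers were shared by groups but nothing in the labels ties them, and same-numbered wells did not deviate together (mean correlation from -0.0413 to 0.0537 over the 6 fits). With the replicate number as a block, 2 member calls were lost, Mt1 in LbNOX against control 48 hr DMSO myoblasts (0.66, adjusted p = 0.0929) and the Slc30a1 piericidin response of mitoLbNOX minus control myoblasts (-0.82, adjusted p = 0.0547), and none was gained.

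Counts of called genes moved by over 1.5 times in places. The 1 for piericidin in NDI1 myoblasts became 6 by the Wald test, 552 unfiltered and 0 in the smaller fit, the 212 for mitoLbNOX against control DMSO myoblasts became 542 unfiltered and 92 in the smaller fit, the 109 for CAP in LbNOX myoblasts became 173 by the Wald test, 750 unfiltered and 69 in the smaller fit and the 29 for LbNOX against control 48 hr DMSO myoblasts became 111 by the Wald test, 382 unfiltered, 5 in the smaller fit, 9 with the block and 70 with plate position. The count of 62 for CAP in LbNOX minus control myoblasts became 136 by the Wald test, 483 unfiltered and 22 with the block, the 841 for piericidin in LbNOX myotubes became 1362 unfiltered, the 3 for LbNOX against GFP DMSO myotubes became 18 by the Wald test, 189 unfiltered and 5 with the block and the 0 for piericidin in LbNOX minus GFP myotubes became 2 by the Wald test and 261 unfiltered. Next, the 0 for oligomycin in LbNOX minus GFP myotubes became 1 by the Wald test and 197 unfiltered, the 325 for piericidin in day 1 cells became 613 unfiltered, the 4549 for myotubes against day 1 cells under DMSO became 2944 with plate position and the 3702 for oligomycin in myotubes minus control myoblasts became 2316 with plate position. Further, the 1063 for piericidin in LbNOX myoblasts became 558 in the smaller fit, the 321 for LbNOX against control DMSO myoblasts became 171 in the smaller fit, the 552 for NDI1 against control DMSO myoblasts became 228 in the smaller fit and the 989 for CAP in control myoblasts became 645 in the smaller fit. The 532 for oligomycin in myotubes in hypoxia became 263 in the smaller fit and the 383 for piericidin in GFP myotubes became 27 in the smaller fit. With counts of 1110065P20Rik added to those of Mtf1, chosen after seeing the data, the antimycin value of LbNOX myoblasts went from -0.17 to 0.51 (adjusted p = 0.00827), and that gene alone rose by 1.44. Of the 20 likeness values, 5 turned negative when the mean of each sample set was not subtracted, at r = -0.0641 for Mt1 and Eno2, -0.47 for Slc30a1 and Wfs1, -0.105 for Slc30a1 and Tax1bp1, -0.499 for Mtf1 and Zfp142, and -0.393 for Mtf1 and Cggbp1. Plate position could not be fitted in day 1 cells, whose wells were all on the edge. Depth limits Slc30a1, at 12 to 71 counts.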
